A study of Mus musculus with 12 samples.

Results

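Epb41l4a, Grik3, Socs2, Bhlhe40, Rnf207, Srp9 and Rab6b are 7 protein-coding mouse genes, of 38293 gene identifiers measured. Their counts differed on average between embryonic ventricles carrying Tnnt2-Cre and ventricles without it, though the pools overlapped for Rnf207 and Rab6b. For Srp9 most of the difference was absent when its reads were counted together with a pseudogene identical to 253 bases of its coding sequence. The 7 genes were chosen by name from a comparison of these same libraries. The distance between ventricles with and without Cre is therefore given as a description, with no test. Comparisons between genotypes on the same side of that divide did not enter the choice, and these were tested.

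Heart ventricles were taken from mouse embryos at E15.5 (embryonic days), and polyA RNA was sequenced from 3 pools per genotype, with 4 pairs of ventricles in each pool. The Mib1 mutant was Mib1 R530X/flox with Tnnt2-Cre/+, and the Cre control was Mib1 flox/+ with Tnnt2-Cre/+. The triple heterozygote was Mib1 R530X/+, Asxl3 M1415V/+ and Apcdd1 V150I/+, with the Asxl3 allele written M1361V in the design text, and the WT group had no allele named. Tnnt2-Cre recombines loxP sites in cardiomyocytes, so other ventricular cells of the Mib1 mutant and the Cre control can keep the flox allele intact. The 6 pools of the Mib1 mutant and Cre control are called Cre-line pools here, and the 6 of the triple heterozygote and WT are called pools without Cre; these are the sides compared below. Every Cre-line embryo carried both Tnnt2-Cre and a flox allele, and the strain background is not given in the labels. The transgene, the flox allele and the strain background therefore cannot be told apart in any difference between these pools. Mib1, a ubiquitin ligase that acts on Notch ligands, had 54.8, 50.1 and 51.8 CPM (reads scaled by library size) in Mib1 mutant pools and 108, 107 and 101 CPM in Cre control pools. It had 74.0, 57.9 and 74.1 CPM in triple heterozygote pools, against 145, 126 and 136 CPM in WT pools, so the pools labelled with the stop allele were lower in both pairs.

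The 7 genes belong to unrelated pathways. Epb41l4a is a FERM-domain protein of the band 4.1 family, whose better known members link membrane proteins to the actin cytoskeleton. Grik3 is a subunit of kainate receptors, glutamate-gated ion channels known mainly from neurons. Socs2 is a cytokine-inducible inhibitor of JAK-STAT signalling that restrains the growth hormone receptor. Bhlhe40 is a transcriptional repressor induced by hypoxia and tied to the circadian clock. Rnf207 is a RING-finger protein of heart muscle that in human genetics is linked to the QT interval and to the potassium channel encoded by KCNH2. Srp9 pairs with Srp14 at the Alu end of the signal recognition particle, where the pair slows translation while a secretory protein is delivered to the endoplasmic reticulum. Rab6b is a Golgi GTPase best known from neurons, and its paralog Rab6a is found in most cells.

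The libraries held 10103548 to 22157720 reads, so 1 read was worth 0.0452 to 0.0991 CPM. CPM values compare a gene between pools but not genes with each other. In TPM, which also divides by exonic length, Bhlhe40 had 36.8 TPM in Cre-line pools, the highest of the 7 genes there, and 22.5 TPM in pools without Cre, where Srp9 was highest. Rnf207 had 31.7 TPM in Cre-line pools and 21.8 TPM without Cre, and Srp9 had 17.2 TPM in Cre-line pools and 25.6 TPM without Cre. Rab6b was the lowest, with 2.41 TPM in Cre-line pools and 4.27 TPM in pools without Cre, and it rested on 27 to 180 reads a library. Ventricular cardiomyocyte markers were present in every pool and summed to 40500 to 55500 CPM in Cre-line pools and 49000 to 54200 CPM in pools without Cre. All 7 genes passed the filter on low counts.

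Of the 7 genes, 5 were higher in Cre-line pools (Epb41l4a, Grik3, Socs2, Bhlhe40 and Rnf207) and 2 were lower (Srp9 and Rab6b). In 5 of the 7 (Epb41l4a, Grik3, Socs2, Bhlhe40 and Srp9) the 6 Cre-line pools did not overlap the 6 pools without Cre, while over all genes tested this held for 1.02%. The genes were chosen on the contrast between these sides, so their separation is not a test of it. Across all 13964 genes tested, 1.69% passed an adjusted p of 0.05 (edgeR's quasi-likelihood test, Benjamini-Hochberg) for this contrast, 0.995% higher and 0.695% lower in Cre-line pools. With whole ventricles pooled, fewer cells of a type and less RNA per cell cannot be told apart.

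**Figure D1:**
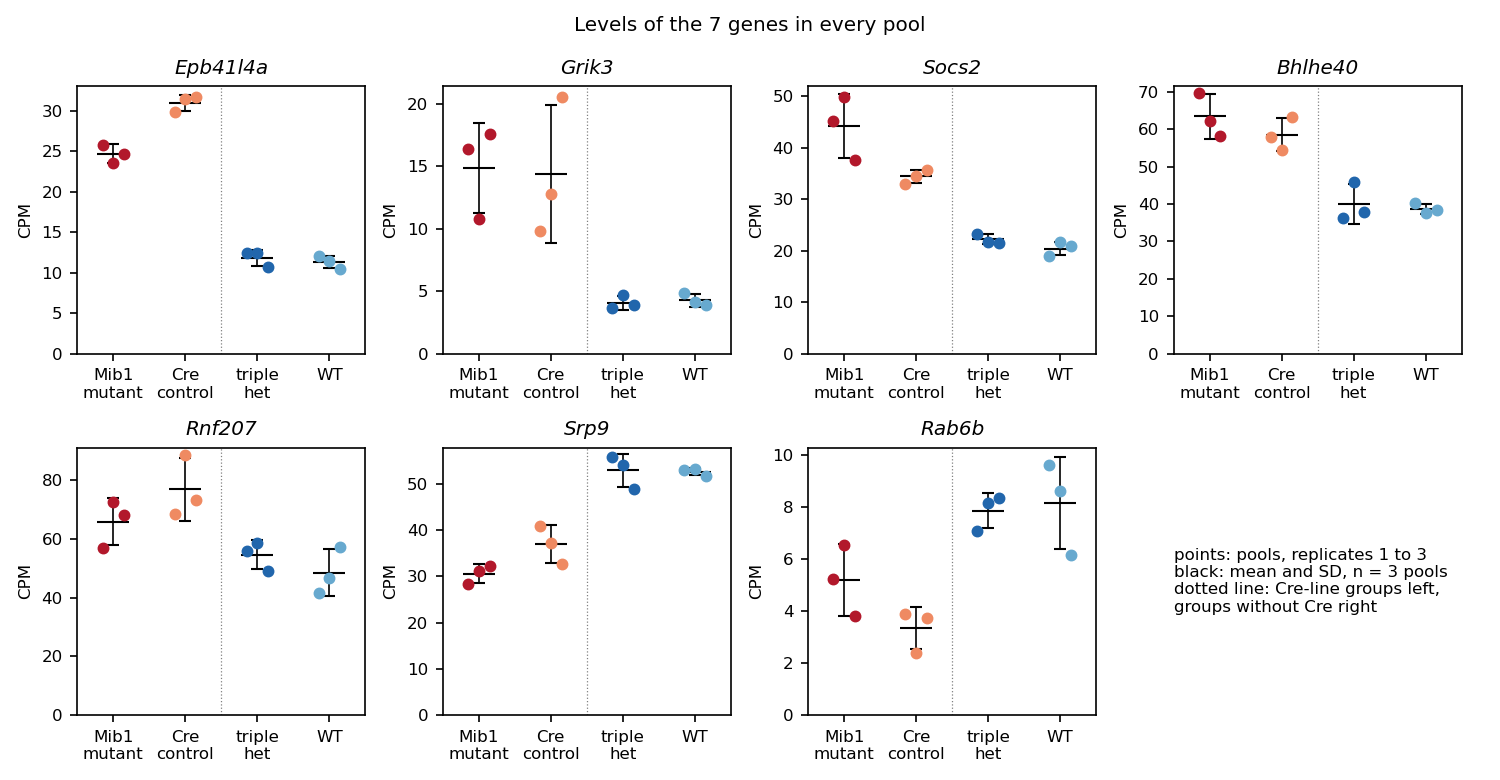
Levels of the 7 genes in CPM (vertical axes, starting at 0) in each of 12 pools, by genotype; points are pools, and black marks are the mean and SD of 3 pools. Epb41l4a, Grik3, Socs2 and Bhlhe40 sit higher and Srp9 lower in all 6 Cre-line pools, while Rnf207 and Rab6b overlap between the sides.

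Epb41l4a (ENSMUSG00000024376, GRCm38 chr18:33796327-34006966, minus strand) had 25.8, 23.6 and 24.7 CPM in Mib1 mutant pools and 29.9, 31.4 and 31.7 CPM in Cre control pools. It had 12.4, 12.4 and 10.7 CPM in triple heterozygote pools, against 12, 11.4 and 10.5 CPM in WT pools. The Cre control pools were all highest, the Mib1 mutant pools came next without overlap, and the triple heterozygote and WT pools overlapped at the bottom. The Cre-line level was 2.39 times that without Cre, a log2 fold change of 1.26 (SE 0.07). The gap was 1.05 (SE 0.09) between Mib1 mutant and triple heterozygote and 1.46 (SE 0.09) between Cre control and WT. Between pools of 1 genotype Epb41l4a varied little, with a coefficient of variation of 3.18% to 8.32%.

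Grik3 (ENSMUSG00000001985, chr4:125490700-125714173, plus strand) had 16.4, 10.8 and 17.6 CPM in Mib1 mutant pools and 9.86, 12.8 and 20.6 CPM in Cre control pools. It had 3.63, 4.66 and 3.86 CPM in triple heterozygote pools, against 4.85, 4.13 and 3.86 CPM in WT pools. The lowest Cre-line pool, Cre control replicate 1, was still above the highest pool without Cre, and within each side the genotypes overlapped fully. Of the 7 genes, Grik3 had the largest fold between sides, 3.51 times (log2 1.81, SE 0.18), and also the largest spread among pools of 1 genotype. Its coefficient of variation was 38.3% over Cre control pools and 24.2% over Mib1 mutant pools, and 13.3% and 12% over triple heterozygote and WT pools. The expected counts of Grik3 were whole in 1 of 12 libraries, so some of its reads were divided with other genes. It shares 1.05% of its 31-base words with them.

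Socs2 (ENSMUSG00000020027, chr10:95385362-95417180, minus strand) had 45.2, 49.9 and 37.6 CPM in Mib1 mutant pools and 33.0, 34.5 and 35.6 CPM in Cre control pools. It had 23.3, 21.6 and 21.5 CPM in triple heterozygote pools, against 19.0, 21.6 and 20.8 CPM in WT pools. All Mib1 mutant pools were above all Cre control pools, which in turn were above every pool without Cre, while triple heterozygote and WT pools overlapped. The Cre-line level was 1.83 times that without Cre (log2 0.87, SE 0.07), with a log2 gap of 1.0 (SE 0.10) between Mib1 mutant and triple heterozygote and 0.75 (SE 0.10) between Cre control and WT. Of the 31-base words in Socs2 exons, 6.18% occur in other genes too, so a small part of its reads may have been divided by the authors' counting.

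Bhlhe40 (ENSMUSG00000030103, chr6:108660629-108666925, plus strand) had 69.8, 62.3 and 58.2 CPM in Mib1 mutant pools and 58.0, 54.5 and 63.2 CPM in Cre control pools. It had 36.2, 46.0 and 37.8 CPM in triple heterozygote pools, against 40.2, 37.6 and 38.5 CPM in WT pools. The lowest Cre-line pool was above the highest pool without Cre, and the genotypes overlapped within each side. The log2 fold change between sides was 0.63 (SE 0.07), 1.54 times, and was nearly equal for Mib1 mutant against triple heterozygote (0.65, SE 0.10) and Cre control against WT (0.60, SE 0.10). An antisense gene that overlaps Bhlhe40, 0610040F04Rik, had at most 0.259 CPM in Cre-line pools and 0.173 CPM in pools without Cre.

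Rnf207 (ENSMUSG00000058498, chr4:152307019-152318993, minus strand) had 57.0, 72.6 and 68.1 CPM in Mib1 mutant pools and 68.4, 88.8 and 73.4 CPM in Cre control pools. It had 55.8, 58.8 and 49.1 CPM in triple heterozygote pools, against 41.6, 46.7 and 57.2 CPM in WT pools. Here the sides overlapped, since Mib1 mutant replicate 1 lay below triple heterozygote replicate 2 and WT replicate 3. The mean of the Cre-line pools was 71.4 ± 10.4 CPM and that of the pools without Cre was 51.6 ± 6.79 CPM (SD, n = 6 each), a log2 fold change of 0.47 (SE 0.09) and the smallest of the 7. The gap was 0.27 (SE 0.13) between Mib1 mutant and triple heterozygote and 0.66 (SE 0.13) between Cre control and WT. Rnf207 overlaps Icmt on the opposite strand over 103 bases, and Icmt itself had a log2 fold change of -0.08 between sides. The expected counts of Rnf207 were whole in 0 of 12 libraries, so some of its reads were divided with other genes, and it shares 1.35% of its 31-base words with them.

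Srp9 (ENSMUSG00000026511, chr1:182124737-182132407, plus strand) shares sequence with a processed pseudogene, and this bears directly on its values. The pseudogene Gm13736 (ENSMUSG00000082908, chr2:87526145-87526397, plus strand) is 253 bases long and is 100% identical to bases 2 to 254 of the 261-base Srp9 coding sequence. The coding sequence of Srp9 is printed to show the extent of the match, with the 253 bases it shares with Gm13736 in capitals; both sequences are from GENCODE M21 on GRCm38.
Srp9 coding sequence: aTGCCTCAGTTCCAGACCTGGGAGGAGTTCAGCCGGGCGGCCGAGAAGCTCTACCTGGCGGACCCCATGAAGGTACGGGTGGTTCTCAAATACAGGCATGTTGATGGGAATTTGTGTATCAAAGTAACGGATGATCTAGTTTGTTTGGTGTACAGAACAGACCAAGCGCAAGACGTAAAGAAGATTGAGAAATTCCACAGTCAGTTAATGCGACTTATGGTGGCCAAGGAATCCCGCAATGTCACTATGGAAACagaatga
A read of 60 bases from inside the capitals matches both loci without a difference: all 194 windows of that length are identical.

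Srp9 had 28.3, 31.1 and 32.2 CPM in Mib1 mutant pools and 40.9, 37.2 and 32.7 CPM in Cre control pools. It had 55.8, 54.0 and 48.9 CPM in triple heterozygote pools, against 53.0, 53.1 and 51.8 CPM in WT pools. Every Cre-line pool was below every pool without Cre, and the Mib1 mutant pools were all below the Cre control pools. The log2 fold change between sides was -0.65 (SE 0.06), which is 1.57 times lower in Cre-line pools.

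Gm13736 had the opposite pattern, with 16.4, 19.9 and 16.6 CPM in Mib1 mutant pools and 12.7, 23.8 and 21.1 CPM in Cre control pools. It had 3.63, 6.01 and 4.86 CPM in triple heterozygote pools, against 3.21, 5.47 and 5.18 CPM in WT pools. The pseudogene took 35.3% ± 6.05 of the reads of the pair in Cre-line pools and 8.22% ± 1.83 in pools without Cre (SD, n = 6 each), with no overlap. The expected counts of Srp9 and Gm13736 added up to a whole number in 12 of 12 libraries, while the Srp9 value alone was whole in 0 of them. Over all its exons, Srp9 shares 4.03% of its 31-base words with Gm13736 and 5.13% with any other gene.

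Counted together, Srp9 and Gm13736 had 44.8, 51.1 and 48.9 CPM in Mib1 mutant pools and 53.5, 61.0 and 53.8 CPM in Cre control pools. Their sum was 59.4, 60.0 and 53.8 CPM in triple heterozygote pools, against 56.3, 58.5 and 57.0 CPM in WT pools. The sum overlapped between the sides, with a mean of 52.2 ± 5.47 CPM in Cre-line pools and 57.5 ± 2.3 CPM in pools without Cre (SD, n = 6 each). With both loci counted as 1 gene, a setting added after the data were seen, the log2 fold change between sides was -0.15 (SE 0.06) in place of -0.65. How much of the Gm13736 count came from transcription of that locus was not tested.

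**Figure D2:**
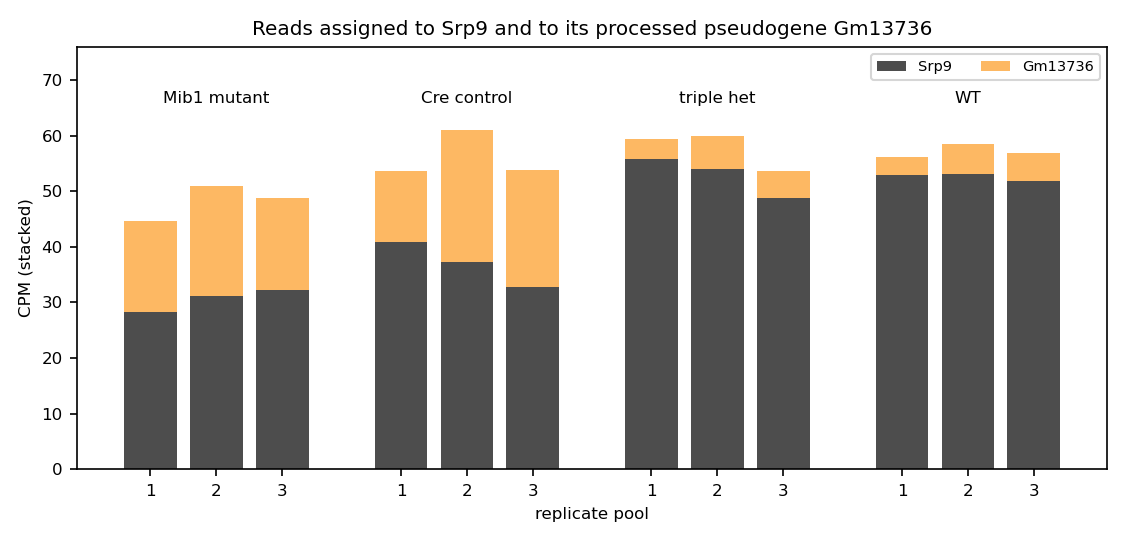
Stacked bars of the CPM given to Srp9 (dark) and to its processed pseudogene Gm13736 (light) in each of 12 pools, by genotype; the vertical axis starts at 0. The light part is 23.6% to 39.2% of the bar in Cre-line pools and 5.7% to 10% in pools without Cre, and the bar heights overlap.

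Rab6b (ENSMUSG00000032549, chr9:103111787-103185276, plus strand) had 5.23, 6.53 and 3.79 CPM in Mib1 mutant pools and 3.87, 2.39 and 3.72 CPM in Cre control pools. It had 7.08, 8.14 and 8.32 CPM in triple heterozygote pools, against 9.62, 8.59 and 6.16 CPM in WT pools. The sides overlapped through a single pair of pools, Mib1 mutant replicate 2 and WT replicate 3, and the Cre control and Mib1 mutant pools overlapped too. The level without Cre was 1.92 times that of the Cre-line pools (log2 -0.94, SE 0.16). The gap was -0.60 (SE 0.22) between Mib1 mutant and triple heterozygote and -1.28 (SE 0.23) between Cre control and WT. Rab6b shares 0.24% of its 31-base words with other genes, and its counts were whole in 12 of 12 libraries.

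The first tested question was whether the 7 genes differed between the Mib1 mutant and the Cre control, both of which carry Cre. None of them passed the adjusted threshold: 0 of the 7 were called by edgeR's quasi-likelihood test, as by DESeq2 and limma-voom, where edgeR called 1.5% of all genes. At an unadjusted p under 0.05, 4 of the 7 genes (Epb41l4a, Socs2, Srp9 and Rab6b) passed, against 14.0% of all genes. In 3 of them (Epb41l4a, Socs2 and Srp9) the Mib1 mutant and Cre control pools did not overlap, which held for 16.6% of all genes tested.

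Socs2 averaged 44.2 ± 6.21 CPM in Mib1 mutant pools and 34.4 ± 1.26 CPM in Cre control pools (SD, n = 3 each). Its log2 fold change was 0.36 (95% interval 0.16 to 0.57), with an adjusted p of 0.0834 from edgeR. Without Mib1 mutant replicate 3, the lowest of its group, the Socs2 value was 0.46 with an adjusted p of 0.0202, and over all alternatives the adjusted p ran from 0.0202 to 0.402. Epb41l4a averaged 24.7 ± 1.13 CPM in Mib1 mutant pools and 31 ± 0.985 CPM in Cre control pools (SD, n = 3 each). Its log2 fold change was -0.33 (95% interval -0.52 to -0.14), with an adjusted p of 0.0866 from edgeR. Both genes thus had intervals away from 0 before adjustment, in opposite directions, and neither passed the threshold over all genes.

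Srp9 averaged 30.6 ± 2.02 CPM in Mib1 mutant pools and 36.9 ± 4.11 CPM in Cre control pools (SD, n = 3 each), a log2 fold change of -0.27 (95% interval -0.46 to -0.07, edgeR adjusted p 0.181). Counted together with Gm13736 the value was -0.22 (SE 0.08), with an adjusted p of 0.214 from edgeR. Rab6b averaged 5.18 ± 1.37 CPM in Mib1 mutant pools and 3.33 ± 0.812 CPM in Cre control pools (SD, n = 3 each), a log2 fold change of 0.63 (95% interval 0.11 to 1.15, edgeR adjusted p 0.243). The remaining members were closer to 0: the log2 fold change was 0.04 for Grik3 (95% interval -0.45 to 0.53), 0.11 for Bhlhe40 (-0.09 to 0.32) and -0.22 for Rnf207 (-0.49 to 0.05). The Grik3 interval is wide because its pools spread widely, and it leaves room for a change of either sign.

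The second tested question was whether the 7 genes differed between the triple heterozygote and WT. By edgeR 0 of the 7 genes passed the adjusted threshold, as by limma-voom, and 0 did so at an unadjusted p under 0.05. DESeq2 also called 0, with no adjusted p given for Epb41l4a, Grik3, Socs2 and Rab6b. Among all genes tested, edgeR called 0.0215% and 8.66% were at an unadjusted p under 0.05. Log2 fold changes were 0.17 for Rnf207 (95% interval -0.10 to 0.45), 0.11 for Socs2 (-0.11 to 0.33) and 0.08 for Epb41l4a (-0.14 to 0.29). They were 0.06 for Bhlhe40 (-0.16 to 0.27), 0.01 for Srp9 (-0.17 to 0.19), -0.05 for Rab6b (-0.50 to 0.41) and -0.05 for Grik3 (-0.65 to 0.54). In all 7 genes the triple heterozygote and WT pools overlapped, and non-overlap was seen in 16.9% of all genes.

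The third tested question was whether the effect of the Mib1 mutant over its control differed from that of the triple heterozygote over WT. Of the 7 genes 0 passed the adjusted threshold in edgeR (0.516% of all genes did), and DESeq2 and limma-voom also called 0. At an unadjusted p under 0.05 there were 3 (Epb41l4a, Rnf207 and Srp9), against 13.8% of all genes. The difference was -0.40 for Epb41l4a (95% interval -0.69 to -0.12, edgeR adjusted p 0.23), -0.40 for Rnf207 (-0.78 to -0.01, adjusted p 0.352) and -0.28 for Srp9 (-0.54 to -0.01, adjusted p 0.352). It was 0.68 for Rab6b (95% interval -0.01 to 1.37), 0.25 for Socs2 (-0.05 to 0.55), 0.09 for Grik3 (-0.68 to 0.87) and 0.06 for Bhlhe40 (-0.24 to 0.36). For Epb41l4a, Rnf207 and Rab6b the distance between the sides was therefore smaller in size for the pair of genotypes with the stop allele, and for Socs2 and Srp9 it was larger, with none of these differences past the threshold.

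**Figure D3:**
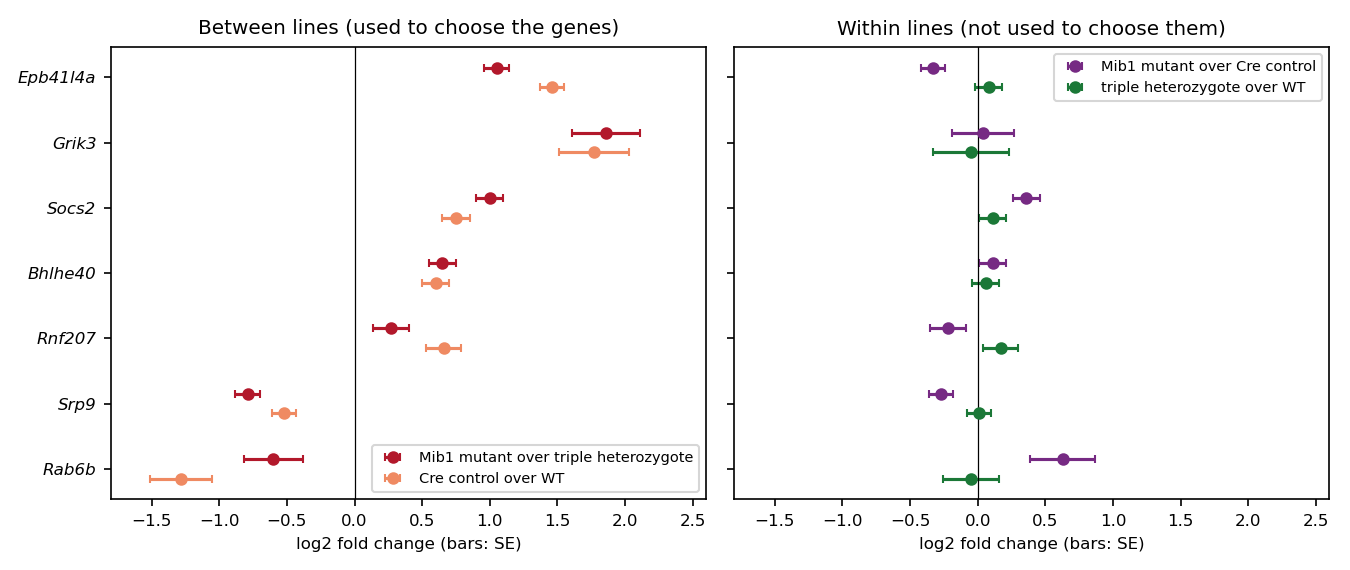
Log2 fold change (horizontal axis) of each of the 7 genes with its SE, between sides on the left (the contrast that chose the genes, shown as a description) and within sides on the right (tested). Between sides all points of a gene lie on the same side of 0, from -1.28 for Rab6b to 1.86 for Grik3; within sides they lie between -0.33 and 0.63 and none passed an adjusted p of 0.05.

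Each gene was then set beside its family or pathway, from lists chosen with earlier results of these data known. For Epb41l4a the list was the band 4.1 and FERM family, of which 0 of 14 other tested members were called between Cre-line pools and pools without Cre (edgeR, where 1.69% of all genes were called). The list had a median log2 fold change of 0.01, against 0.00 over all genes. The nearest paralog, Epb41l4b, had 1.33 to 4.09 CPM in Cre-line pools and 1.32 to 1.88 CPM in pools without Cre, a log2 value of 0.52 (SE 0.22, edgeR adjusted p 0.353). Epb41l5, a paralog with a role in epithelial remodelling of the embryo, had a value of -0.00 (SE 0.10, edgeR adjusted p 0.999).

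For Grik3, 0 of 10 other tested ionotropic glutamate receptor genes were called higher and 2 were called lower, with a median of 0.15. The kainate receptor subunits Grik5, with 27.7 to 33.4 CPM in Cre-line pools and 24.6 to 29.6 CPM without Cre, and Grik2, with 1.33 to 2.52 and 1.19 to 2.86 CPM, had log2 values of 0.15 and 0.14 (edgeR adjusted p 0.238 and 0.889). Grik1 and Grik4 stayed under 1 CPM in every pool and were not tested. The genes that fell in Cre-line pools were AMPA receptor subunits. Gria1 had 7.89 to 13.3 CPM in Cre-line pools and 11.8 to 15.8 CPM without Cre (log2 -0.48, SE 0.10, edgeR adjusted p 0.022). Gria2 had 0.28 to 2.71 CPM in Cre-line pools and 1.81 to 2.68 CPM without Cre (log2 -1.48, SE 0.29, edgeR adjusted p 0.0137). Unlike Grik3, Gria2 was low in the Mib1 mutant pools rather than across the Cre-line pools: it had 0.285, 0.28 and 0.345 CPM there and 0.966, 1.42 and 2.71 CPM in Cre control pools (log2 -2.48, SE 0.46, edgeR adjusted p 0.0105). Since Grik3 and Rab6b are known from neurons, neuronal markers were read beside them. Of 14 neuronal markers, 6 were under 1 CPM in every pool, among them Snap25, Syt1 and Th. The 14 summed to 20.8 to 32.8 CPM in Cre-line pools and 22.4 to 28.5 CPM without Cre, and 0 of the 6 tested were called. Gap43 was the largest part of that sum, with 13.5 to 20.9 CPM in Cre-line pools and 13.2 to 18.5 CPM without Cre.

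For Socs2, 1 of 22 other tested members of the SOCS family and JAK-STAT list was called, and the list had a median of -0.01. That member was Cish, a SOCS family gene that STAT5 induces as it does Socs2. Cish had 36.1, 28.9 and 25.3 CPM in Mib1 mutant pools and 31.3, 31.5 and 31.2 CPM in Cre control pools, with 19.0, 21.7 and 19.6 CPM in triple heterozygote pools, against 22, 26.7 and 23.9 CPM in WT pools. The sides overlapped through Mib1 mutant replicate 3, and the log2 fold change was 0.47 (SE 0.08, edgeR adjusted p 0.00705). For Bhlhe40, 0 of 21 other tested circadian clock genes were called, with a median of 0.07. Its paralog Bhlhe41 had 10.2 to 14.3 CPM in Cre-line pools and 9.94 to 11.3 CPM without Cre, a log2 value of 0.23 (SE 0.08, edgeR adjusted p 0.226).

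For Srp9, 1 of 24 other tested genes of the signal recognition particle and translocon was called, with a median of -0.01. Its direct partner Srp14 had 49.4 to 63.8 CPM in Cre-line pools and 49.1 to 60.9 CPM without Cre, a log2 value of 0.01 (SE 0.06, edgeR adjusted p 0.98). Srp68 and Srp72, protein subunits at the opposite end of the particle, both had a value of -0.04 (SE 0.05 each, edgeR adjusted p 0.836 and 0.819). The called gene was Srp54a, the GTPase subunit that binds signal peptides, with 65.5 to 77.6 CPM in Cre-line pools and 84.0 to 105 CPM without Cre (log2 -0.38, SE 0.06, edgeR adjusted p 0.00158). Srp54a has near-identical neighbours on chromosome 12, and among them Srp54c had a value of -0.36 (SE 0.10, edgeR adjusted p 0.0865), so the division of reads between these copies is uncertain. For Rab6b, 0 of 19 other tested Rab6 partners were called, with a median of -0.02. Rab6a had 168 to 203 CPM in Cre-line pools and 157 to 199 CPM without Cre, a log2 value of 0.00 (SE 0.05, edgeR adjusted p 0.997).

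For Rnf207, 1 of 19 other tested genes from its partners and the QT interval list was called, with a median of -0.05. Kcnh2, the potassium channel that human RNF207 is linked to, had 95.4 to 108 CPM in Cre-line pools and 89.9 to 111 CPM without Cre, a log2 value of 0.06 (SE 0.06, edgeR adjusted p 0.801). The called gene was Kcne1, a potassium channel accessory subunit. Kcne1 had 232, 183 and 180 CPM in Mib1 mutant pools and 93.6, 112 and 97.2 CPM in Cre control pools, with 87.4 to 102 CPM over all pools without Cre. Its high values were those of the Mib1 mutant pools (Mib1 mutant over Cre control log2 0.97, SE 0.10, edgeR adjusted p 7.95e-05), unlike Rnf207, which was higher in Cre control than in Mib1 mutant pools on average. Ndrg4, in the list as a gene near a human QT locus, fell in the Mib1 mutant relative to the Cre control (log2 -0.33, SE 0.07, edgeR adjusted p 0.0289).

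**Figure D4:**
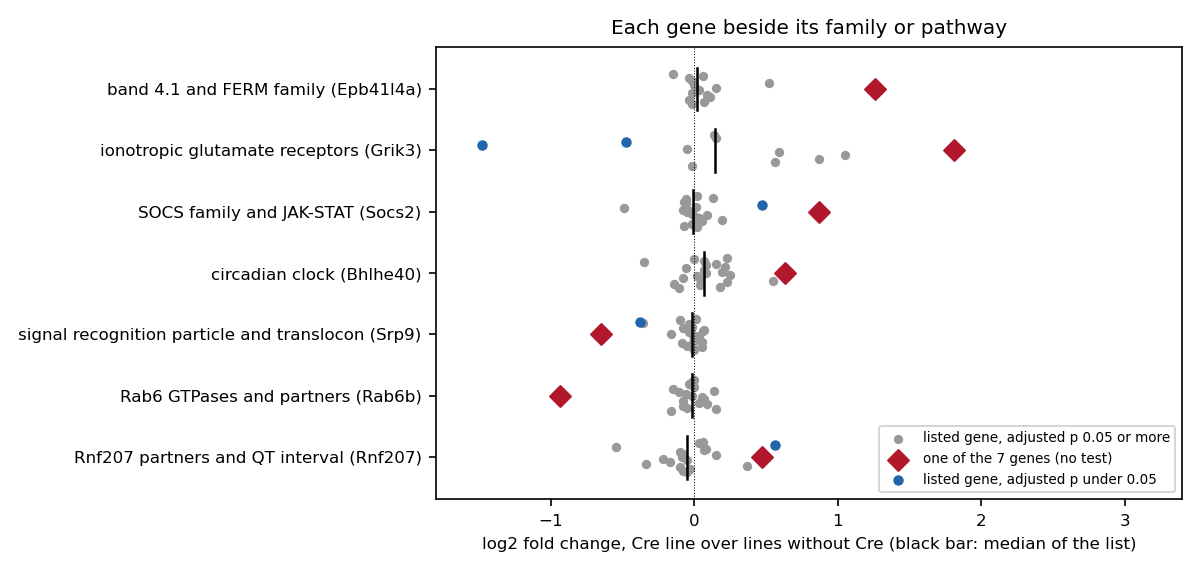
Log2 fold change of Cre-line pools over pools without Cre (horizontal axis) for the tested genes of each family or pathway list; diamonds are the 7 genes, blue points are other listed genes at an adjusted p under 0.05, grey points the rest, and black bars the medians of the other listed genes. The medians lie between -0.05 and 0.15, and the 5 called genes are Gria1, Gria2, Cish, Srp54a and Kcne1.

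For each of the 7 genes, the protein-coding gene with the most similar profile was found by the root mean square difference of log2 CPM over the 12 libraries, each gene centred on its own mean, among 11833 genes. The nearest gene to Epb41l4a was Socs2 (0.332), and the nearest to Grik3 was Epb41l4a (0.385), while Socs2 had its own nearest gene outside the 7. Likeness between members follows in part from their choice on the same contrast. Socs2 was nearest to Aldoc, a glycolytic aldolase (0.186), which had 22.5 to 38.0 CPM in Cre-line pools and 15.3 to 21.2 CPM without Cre. Bhlhe40 was nearest to Dynlt1c, a dynein light chain (0.127), with 8.79 to 10.4 CPM in Cre-line pools and 5.81 to 6.84 CPM without Cre. The sequence that Dynlt1c shares with other genes of its cluster was not measured, so its values may depend on how reads were divided. Rnf207 was nearest to Ggnbp1 (0.12), with 11.1 to 15.6 and 8.67 to 12.2 CPM. Srp9 was nearest to Tnni3k, a heart muscle kinase (0.165), with 67.6 to 92.6 CPM in Cre-line pools and 103 to 116 CPM without Cre. Rab6b was nearest to the zinc-finger gene Zfp979 (0.317), with 3.72 to 6.06 and 5.06 to 7.71 CPM. The distances of Epb41l4a, Grik3 and Rab6b were larger than those of Bhlhe40, Rnf207, Srp9 and Socs2, and a gene with a larger spread or range has larger distances.

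The 7 genes lie on 6 chromosomes, with Grik3 and Rnf207 both on chromosome 4. Within 1 Mb on either side of them, 2 of 101 other tested protein-coding genes were called between Cre-line pools and pools without Cre by edgeR. Reep5, an endoplasmic reticulum membrane protein gene that starts 0.37 Mb from Epb41l4a, had 153 to 197 CPM in Cre-line pools and 210 to 238 CPM without Cre (log2 -0.33, SE 0.04, edgeR adjusted p 0.000542). It lay in the opposite direction to Epb41l4a, and it was also called lower in the Mib1 mutant relative to the Cre control (log2 -0.29, edgeR adjusted p 0.0226). Cnih4, 0.98 Mb from Srp9, had 73.4 to 81.3 CPM in Cre-line pools and 84.4 to 102 CPM without Cre (log2 -0.24, SE 0.05, edgeR adjusted p 0.031). Epb41l4a is on chromosome 18, which also carries Mib1 (chr18:10725548-10818704) and thus the flox and stop alleles. On that chromosome 13 of 355 tested genes were called between sides (3.66%, against 1.69% over all genes). The share was 3.4% on chromosome 17 (22 of 647) and 2.95% on chromosome 13 (15 of 508), which hold none of the 7 genes. It was 2.59% on chromosome 4 (23 of 888), and on the mitochondrial genome 2 of 15 tested genes were called (13.3%). Whether linkage to Mib1 has a part in the Epb41l4a values was not tested.

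Some markers of other cells were called between sides, but the sums of the erythroid and atrial marker lists were set apart by 1 genotype. Of 7 tested erythroid markers 5 were called lower in Cre-line pools (median log2 -0.43), with sums of 3540 to 5100 CPM in Cre-line pools and 4380 to 8330 CPM without Cre. The mean erythroid sum was 4140 CPM in the Mib1 mutant, 4670 CPM in the Cre control, 7650 CPM in the triple heterozygote and 4740 CPM in WT, so the triple heterozygote stood high. Of 7 atrial cardiomyocyte markers 2 were called lower in Cre-line pools, Nppa and Bmp10. The 7 summed to 959 to 1870 CPM there and 1690 to 2220 CPM without Cre. The mean atrial sum was 1350 CPM in the Mib1 mutant, 1850 CPM in the Cre control, 2150 CPM in the triple heterozygote and 1870 CPM in WT, so the Mib1 mutant stood low. Nppa weighed heavily in that sum, with 175, 481 and 299 CPM in Mib1 mutant pools and 841, 887 and 810 CPM in Cre control pools. The log2 fold change between these genotypes was -1.41 for Nppa, -2.62 for Bmp10, -0.21 for Stard10 and -0.06 for Myl4. It was 0.61 for Myl7, 0.61 for Sln and 0.14 for Nr2f2. Only Nppa and Bmp10 were called by edgeR among these genes, so the low sum is not read as less atrial tissue. Of 4 tested glial and neural crest markers 1 was called lower in Cre-line pools, with sums of 109 to 158 CPM there and 142 to 176 CPM without Cre. None of the ventricular cardiomyocyte (0 of 10), endothelial (0 of 8), fibroblast (0 of 8), leukocyte (0 of 8), hepatocyte (0 of 2), immediate early and heat shock (0 of 17) or sex-linked (0 of 5) genes tested were called between sides by edgeR. In the Mib1 mutant relative to the Cre control, 2 of 8 leukocyte markers (mean sums of 54.3 and 83 CPM), 2 of 7 atrial markers and 1 of 4 glial markers (119 and 147 CPM) fell, and in the triple heterozygote relative to WT 2 of 7 erythroid markers rose. The part of these cells in the values of the 7 genes was not tested. Xist was at 0.095 CPM in Mib1 mutant replicate 1 and 0.387 CPM in Cre control replicate 1, and between 71.5 and 458 CPM in the other pools. Without those pools the log2 fold change between sides was 1.25 for Epb41l4a, 1.88 for Grik3, 0.88 for Socs2, 0.59 for Bhlhe40, 0.55 for Rnf207, -0.67 for Srp9 and -1.0 for Rab6b, each close to its value with all pools.

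**Figure D5:**
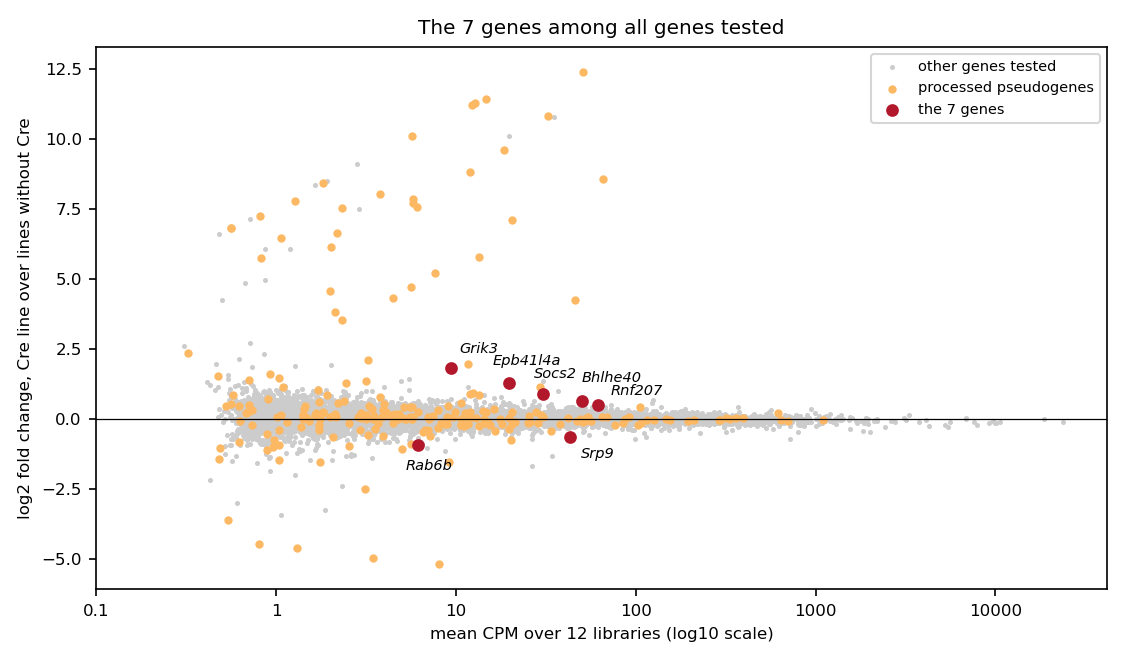
Log2 fold change of Cre-line pools over pools without Cre (vertical axis) against the mean CPM over 12 libraries (horizontal axis, log10 scale) for 13964 genes tested, with processed pseudogenes in orange and the 7 genes in red. Among all genes the 7 lie at moderate folds, from -0.94 for Rab6b to 1.81 for Grik3, below a group of processed pseudogenes with far larger values.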

How the data were processed

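RNA was sequenced with single reads of 60 bases from directional libraries of 12 pools, per the labels' protocols. Tools named in the submitters' processing notes, without roles, are RSEM, cutadapt, limma and bcl2fastq 2.20.0.422, with build GRCm38; neither an aligner nor an annotation release is given in the sources used. A single table of RSEM expected counts per gene was deposited, unscaled for depth. Of its values 9.64% were not whole, since RSEM splits a read among the genes it matches. Columns were matched to samples by the alleles in their names; for the triple heterozygote this is an inference from a name with neither flox nor Cre. There were 0 columns left unused. Pools hold different ventricles, and whether they shared litters is not stated. The p-values set each difference against the spread between these pools, which may not cover the spread between litters.

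Expected counts were rounded and fitted in R 4.3.3 with the two-sided quasi-likelihood F test of edgeR 4.0.16 (TMM scaling, filterByExpr) over all 12 libraries and 4 groups, with 8 residual degrees of freedom. The filter kept 13964 genes holding 99.9% of counts, and Benjamini-Hochberg adjustment ran over these, with a threshold of 0.05. The common biological coefficient of variation was 0.0982. The contrast between sides is the mean of the Mib1 mutant and Cre control minus the mean of the triple heterozygote and WT. The SE is the log2 fold change divided by the square root of F. GENCODE M21 gave symbols, positions, exonic lengths and sequences on GRCm38; shared sequence was counted in words of 31 bases. Alternatives were median-ratio scaling, no filter, a mean of at least 2 CPM, DESeq2 1.42.0, limma-voom (limma 3.58.1), the compared libraries alone, the replicate number as a block, a sex-mix covariate, leaving out the pools low in Xist, and each library left out in turn. The procedure was tested on simulated counts.

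The 7 genes, the family lists and the marker lists were chosen with earlier results of these data known. Besides the 7 genes, the rule for named genes takes the nearest profile to each, up to 3 called genes and the direct paralogs in each family list, called protein-coding genes within 1 Mb, and for each direction the 5 called protein-coding genes with the largest fold among those without overlap and averaging 2 CPM or more. Mib1, Gm13736, Srp54c, Kcnh2, Atp6v0c and Atp6v0c-ps2 were named after their values were seen.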

Additional observations from a re-analysis of the deposited data

Results flagged for a closer look

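Kcne1, the potassium channel subunit listed beside Rnf207, had a different response in the genotype pairs. It had 232, 183 and 180 CPM in Mib1 mutant pools and 93.6, 112 and 97.2 CPM in Cre control pools, while triple heterozygote pools had 94.6, 98.0 and 87.4 CPM, against 97.3, 102 and 98.0 CPM in WT pools. The difference between these effects was 1.06 on the log2 scale (edgeR adjusted p 0.00476), with a Mib1 mutant effect of 0.97 and a triple heterozygote effect of -0.09 (adjusted p 0.802). None of the 7 genes was picked out in this way.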

How the results depend on the processing

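For the 7 genes, the log2 fold change between sides kept its sign under all alternatives run, and it moved beyond the spread only for Srp9 counted with Gm13736 (-0.15). The count of the 7 called was 0 in the tested comparisons except without Mib1 mutant replicate 3, where Socs2 was called against the Cre control (range 0 to 1). Leaving out both pools low in Xist reversed Grik3 (-0.25 for Mib1 mutant minus Cre control and -0.21 for the difference between effects) and Bhlhe40 (difference -0.04). With single libraries left out, signs reversed for Grik3 (-0.17 to 0.40, -0.19 to 0.04 for the triple heterozygote and -0.11 to 0.45 for the difference), Bhlhe40 (-0.07 to 0.12 and -0.04 to 0.18), and, for the triple heterozygote, Srp9 (-0.03 to 0.06) and Rab6b (-0.21 to 0.09). Rnf207 kept its sign but moved by over 1.5 times, to between -0.30 and -0.11 for the Mib1 mutant (-0.11 without Cre control replicate 2) and between 0.07 and 0.31 for the triple heterozygote (0.07 without WT replicate 1, 0.31 without WT replicate 3). The cause was not tested.

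Counts over all genes moved more. Between sides 236 genes were called, 395 with no filter, 357 with DESeq2 and 155 to 278 with single libraries left out. For the Mib1 mutant, 210 were called, 476 with no filter, 417 with DESeq2, 93 from the compared libraries alone, 110 without the pools low in Xist and 116 to 415 with single libraries left out. For the triple heterozygote the 3 calls became 54 with no filter, 28 with DESeq2, 10 from the compared libraries alone, 5 with the sex-mix covariate, 7 without the pools low in Xist and 1 to 6 with single libraries left out. For the difference between effects the 72 calls became 246, 167 and 41 with no filter, with DESeq2 and without the pools low in Xist, and 28 to 233 with single libraries left out. Whether shared replicate numbers pair the pools was not settled. Of 18 same-number pairs 8 correlated over 0.1 (-0.15 to 0.30), and pairs with different numbers ran from -0.29 to 0.30. Of 12 libraries 6 correlated best with their own number. With the replicate number as a block, 277 genes were called between sides, 318 for the Mib1 mutant and 109 for the difference.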

Other observations

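The 7 genes stand among larger differences between Cre-line pools and pools without Cre. Of 239 processed pseudogenes tested, 29 (12.1%) were called by edgeR and 29 of these were higher in Cre-line pools, against 99 higher and 93 lower of 13015 protein-coding genes (1.48% called). Of the called protein-coding genes with a mean of at least 2 CPM, 49 had no overlap between sides, and 5 of these are among the 7 genes. The 5 with the largest rise were Eno1b, Gm10260, Grik3, Dynlt1b and Iigp1, and the 5 with the largest fall were Sypl2, Srp9, Fzd8, Tmem241 and Fbxo44. Of these, Eno1b, Iigp1, Fzd8 and Tmem241 are on chromosome 18. Mib1 lies between Fzd8 (chr18:9212163-9218136) and Tmem241 (chr18:11964450-12121537). The others are on chromosomes 1, 3, 4, 13 and 17. Whether linkage to Mib1 has a part in these values was not tested. Eno1b had 30.0 to 108 CPM in Cre-line pools and 0 to 0.421 CPM without Cre. The sequence that Eno1b and Gm10260 share with other genes was not measured, so their values may depend on how reads were divided. Dynlt1b, from the same gene cluster as Dynlt1c, the profile neighbour of Bhlhe40, had 25.9 to 70.0 CPM in Cre-line pools and 10.9 to 22.1 CPM without Cre. The sequence shared within that cluster was not measured either, so the values of Dynlt1b and Dynlt1c may not be independent. The Wnt receptor gene Fzd8 had 15.3 to 18.8 CPM in Cre-line pools and 21.1 to 27.8 CPM without Cre (log2 -0.50, edgeR adjusted p 0.00204).

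Atp6v0c, a proton pump subunit gene, and its pseudogene also had opposite directions between sides; their shared sequence and summed level were not measured. Atp6v0c had 96.5 to 170 CPM in Cre-line pools and 162 to 193 CPM without Cre, and its pseudogene Atp6v0c-ps2 had 17.5 to 55.6 CPM in Cre-line pools and 0 to 0.407 CPM without Cre.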
